A study of Arabidopsis thaliana with 36 samples.

Results

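Binding of a plastid protein to chloroplast DNA was compared between seedlings of the Arabidopsis thaliana line chlm and seedlings of the reference line Col0. The comparison used 12 of the 36 libraries of the series. They were chosen by their labels: 3 libraries from chromatin immunoprecipitation (ChIP) and 3 input libraries of unselected DNA for each line. The change of binding is the log2 ratio of ChIP to input in chlm minus the same ratio in Col0, on coverage scaled to each library total. It was taken for all 113 plastid genes, for 101 spacers of at least 50 bp between genes and for 2564 windows of 50 bp, and every one of these was tested. The other 12 seedling libraries, from the lines chl27 and sig2-2, entered the fits for a shared estimate of the spread.

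Both lines were 4-day-old seedlings with no treatment, grown on 0.5X MS plates in continuous light at 100 µmol m-2 s-1. Formaldehyde at 4% was applied for 4 h to crosslink the chloroplasts of 50 seedlings per preparation, so every library pools many plants. The labels name no antibody for the seedling libraries and give the genotype of each line as wild type. The line was therefore read from the sample titles and the cell line entries, and no allele is stated. The labels do not say whether replicates were separate cultures, so the errors and p-values measure only the spread between these samples, which may be technical.

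CHLM is the methyltransferase that acts on Mg-protoporphyrin IX on the way to chlorophyll. It is a nuclear gene and lies outside the plastid table, so the line could not be checked on its own gene. Most plastid genes are transcribed by a plastid-encoded RNA polymerase of bacterial type, which nucleus-encoded sigma factors guide to promoters, and a nucleus-encoded polymerase transcribes some of the housekeeping genes. The plastid genome codes for core proteins of both photosystems that bind chlorophyll. PsaA and PsaB form the core of photosystem I, and PsbA (D1), PsbD (D2), PsbB (CP47) and PsbC (CP43) form the core of photosystem II. The remaining plastid psa and psb genes code for small proteins, most of them subunits.

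Mean coverage per position lay between 1132 and 2893 in the 12 libraries. The ChIP libraries of chlm varied more among themselves than those of Col0: the median SD of a gene over replicates was 0.14 in chlm and 0.08 in Col0 on the log2 scale, against 0.03 in the inputs of either line. The rRNA operon took 25.8%, 21.1% and 28.2% of coverage in the 3 chlm ChIP libraries and 27.1%, 28.0% and 24.3% in those of Col0. These ranges overlapped, and the difference of -1.43 percentage points had an exact two-sided permutation p of 0.7, where 0.1 is the smallest that 3 against 3 allows. In the inputs the operon took 8.04%, 7.51% and 7.70% in chlm and 7.36%, 7.08% and 6.58% in Col0, with no overlap (difference 0.74 percentage points, exact permutation p = 0.1). The SD of the ChIP-to-input profile over genes was 1.21 ± 0.11 (SD, n = 3) in chlm and 1.24 ± 0.03 in Col0 (exact permutation p = 0.7), so a narrower or wider profile was not detectable with these replicates.

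No gene passed the threshold between chlm and Col0. With limma over 113 genes, 0% had a Benjamini-Hochberg adjusted p under 0.05, and 8 genes had an unadjusted p under 0.05, of which 7 were lower in chlm (6.19% of all genes) and 1 was higher (0.885%). The log2 changes ran from -0.36 to 0.25 with a median of 0.03. Under the other processing settings the count of genes past the threshold lay between 0 and 3, and each gene that passed was lower in chlm. They were psaA, psaB and psbD. The 7 lower genes were these 3, psbC, rrn23S, rrn4.5S and trnI (ArthCt113), and the higher gene was psaI.

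With 95% intervals from the shared spread, large changes of relative binding were excluded for nearly all genes. Each library was scaled to its own plastid total, so a uniform rise or fall of binding over the plastid genome cannot be seen or excluded. For each feature, the outer end of its 95% interval gives the largest change in either direction that the interval still holds. Over genes this bound had a median of 0.31 on the log2 scale, or 1.24-fold, and ranged from 1.16-fold to 1.73-fold. The interval lay inside 1.5-fold for 112 of 113 genes and inside 1.2-fold for 36. The exception at 1.5-fold was trnH, a tRNA gene of 73 bp at positions 4 to 76 whose Col0 input coverage was 0.173 of the genome average. Its interval ran from -0.79 to 0.41.

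With intervals widened so that all 113 hold together (Bonferroni), the median bound was 1.44-fold, and 78 genes lay inside 1.5-fold and 112 inside 2-fold. With the single 95% intervals, the 20 photosystem genes had a median bound of 1.27-fold, and the widest was 1.49-fold, that of psaA. With the Bonferroni intervals over all genes, their median bound was 1.47-fold and the widest 1.70-fold, and 13 of the 20 lay inside 1.5-fold. Spacers and windows were less precise. With single 95% intervals the median bound was 1.32-fold over spacers, with 87 of 101 inside 1.5-fold and 99 inside 2-fold. It was 1.33-fold over windows, with 2267 of 2564 inside 1.5-fold and 2513 inside 2-fold. With Bonferroni intervals over all spacers or all windows, the median bounds were 1.54-fold and 1.78-fold. Only 40 spacers and 117 windows then lay inside 1.5-fold. These bounds rest on a spread shared by all 24 seedling libraries. The fit took ChIP and input libraries as equally variable, although the ChIP libraries varied more, so the intervals may be too narrow. With the 12 chlm and Col0 libraries alone, pooled in the same way, the median gene bound was 0.30 on the log2 scale. In that fit 112 genes were inside 1.5-fold. Centring on the median gene and scaling outside the inverted repeats each left 108 genes inside 1.5-fold. Leaving out a library left 109 to 112. The bound of 1.49-fold for psaA belongs to the main setting, as its change was -0.41 (SE 0.10) with scaling outside the repeats.

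**Figure D1:**
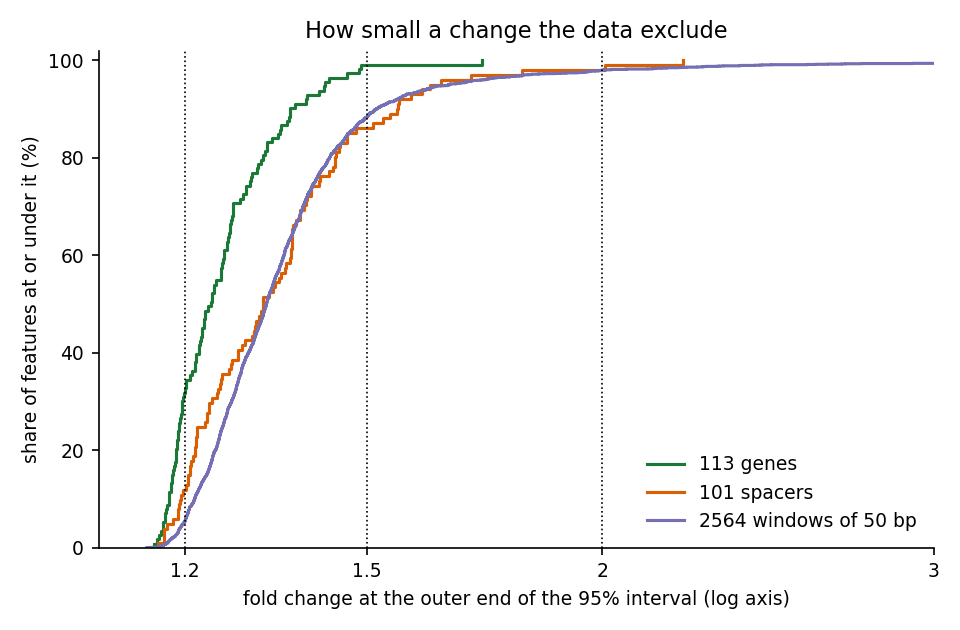
Cumulative share of features (percent, vertical axis) by the fold change at the outer end of their 95% interval for chlm against Col0 (horizontal log axis), for 113 genes, 101 spacers and 2564 windows, with dotted lines at 1.2-fold, 1.5-fold and 2-fold. The curve of the genes lies left of the other curves and reaches 112 of 113 genes at 1.5-fold, and the axis ends at 3-fold, beyond which a few windows lie.

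The 3 lowest changes were those of psaA, psbD and psaB, genes for photosystem cores. psaA (ArthCp022, positions 39605 to 41857) had ChIP-to-input values of -0.16, -0.42 and -0.27 in the 3 Col0 replicates and -0.61, -0.56 and -0.75 in the 3 chlm replicates, on the log2 scale. All chlm replicates were below all Col0 replicates. The change was -0.36 (SE 0.11, 95% interval -0.57 to -0.14), which is 0.78-fold, with a limma adjusted p of 0.181. That p depended on the processing, from 8.83e-04 to 0.546 over 24 alternatives, and the change lay between -0.43 and -0.27 in these.

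psaB (ArthCp021, 37375 to 39579) follows psaA in the same operon. Its values were -0.27, -0.39 and -0.23 in Col0 and -0.63, -0.51 and -0.65 in chlm. These did not overlap either, with a change of -0.30 (SE 0.11, limma adjusted p = 0.260). The operon ends with rps14 (36938 to 37240), a ribosomal protein gene, whose change was -0.18 and whose replicates overlapped between the lines.

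psbD (ArthCp017, 32711 to 33772) was at 0.02, 0.03 and 0.08 in Col0 and at -0.18, -0.18 and -0.43 in chlm. Again no replicate overlapped, and the change was -0.31 (SE 0.10, limma adjusted p = 0.205). psbC (ArthCp018, 33720 to 35141), which overlaps the end of psbD and shares coverage with it there, was at 0.14, 0.07 and 0.14 in Col0 and at -0.03, -0.10 and -0.27 in chlm. Its replicates did not overlap, with a change of -0.24 (SE 0.10, limma adjusted p = 0.487).

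psbA (ArthCp002, 383 to 1444) was the core gene with the highest binding, at 1.63, 1.53 and 1.53 in Col0 and 1.43, 1.33 and 1.40 in chlm. The change was -0.18 (SE 0.10, limma adjusted p = 0.687) and the groups were separate by a narrow margin. psbB (ArthCp049, 72371 to 73897) was at -0.71, -0.68 and -0.63 in Col0 and at -0.78, -0.74 and -0.99 in chlm, also without overlap, for a change of -0.17 (SE 0.11, limma adjusted p = 0.755).

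**Figure D2:**
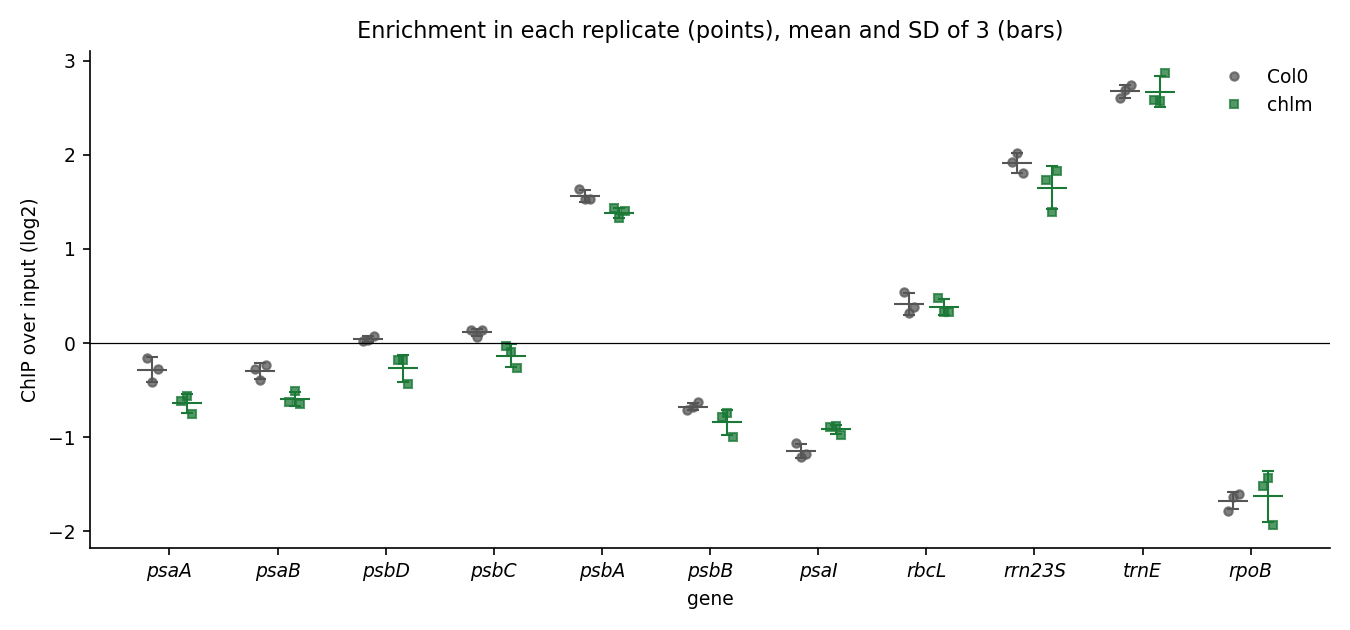
ChIP over input (log2, vertical axis) of 11 genes in each of the 3 Col0 replicates (circles) and 3 chlm replicates (squares), with the mean and SD of the 3 as bars. The chlm points of psaA, psaB, psbD, psbC, psbA and psbB lie below the Col0 points, those of psaI above, and those of rbcL, rrn23S, trnE and rpoB overlap with Col0.

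Of the 20 photosystem genes, 4 were lower and 1 was higher at an unadjusted p under 0.05, and 0 passed the adjusted threshold in limma. Replicates were without overlap and lower for 7 of the 20, against 10 of all 113 genes (8.85%), and higher for 1, against 3 of 113 (2.65%). The 7 were the 6 core genes and psbN. The 6 core genes are also the only photosystem genes of 300 bp or more, and their median change was -0.27, against 0.05 over the 56 other genes of that length. In the 14 shorter photosystem genes the median change was 0.02, with a range from -0.19 to 0.23.

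The members at both ends of these 14 were as follows. psbN (ArthCp051, 74249 to 74380), needed for assembly of the photosystem II core, was at 0.30, 0.32 and 0.31 in Col0 and at 0.01, 0.19 and 0.14 in chlm. Its change was -0.19 (SE 0.10), with no overlap. psaI (ArthCp032, 59247 to 59360), a small subunit of photosystem I, was at -1.06, -1.2 and -1.18 in Col0 and at -0.89, -0.89 and -0.97 in chlm.

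psaI was thus higher in every chlm replicate, by 0.23 (SE 0.11, limma adjusted p = 0.682). The other small photosystem I genes, psaC and psaJ, had changes of 0.04 and 0.12. Among small photosystem II genes the change was -0.07 for psbZ, -0.06 for psbH, -0.02 for psbT, -0.01 for psbF, 0.01 for psbJ, 0.02 for psbM, 0.03 for psbK, 0.05 for psbE (a cytochrome b559 subunit, like psbF), 0.08 for psbI and 0.14 for psbL. The replicates of each of these overlapped between chlm and Col0.

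Taken as a list, the 20 photosystem genes had a median change of -0.01, beside 0.03 over all genes. The list's median against the Col0 mean was -0.07, 0.09 and -0.14 in the 3 chlm replicates and -0.02, -0.03 and 0.04 in the 3 Col0 replicates, which overlapped. With libraries centred on their median gene the list's median was 0.05, so its sign depends on the scaling. For the 6 core genes the same medians were -0.19, -0.22 and -0.37 in chlm and 0.02, -0.04 and 0.03 in Col0, and the list's median was -0.21 with centring and -0.33 when library totals left out the inverted repeats.

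**Figure D3:**
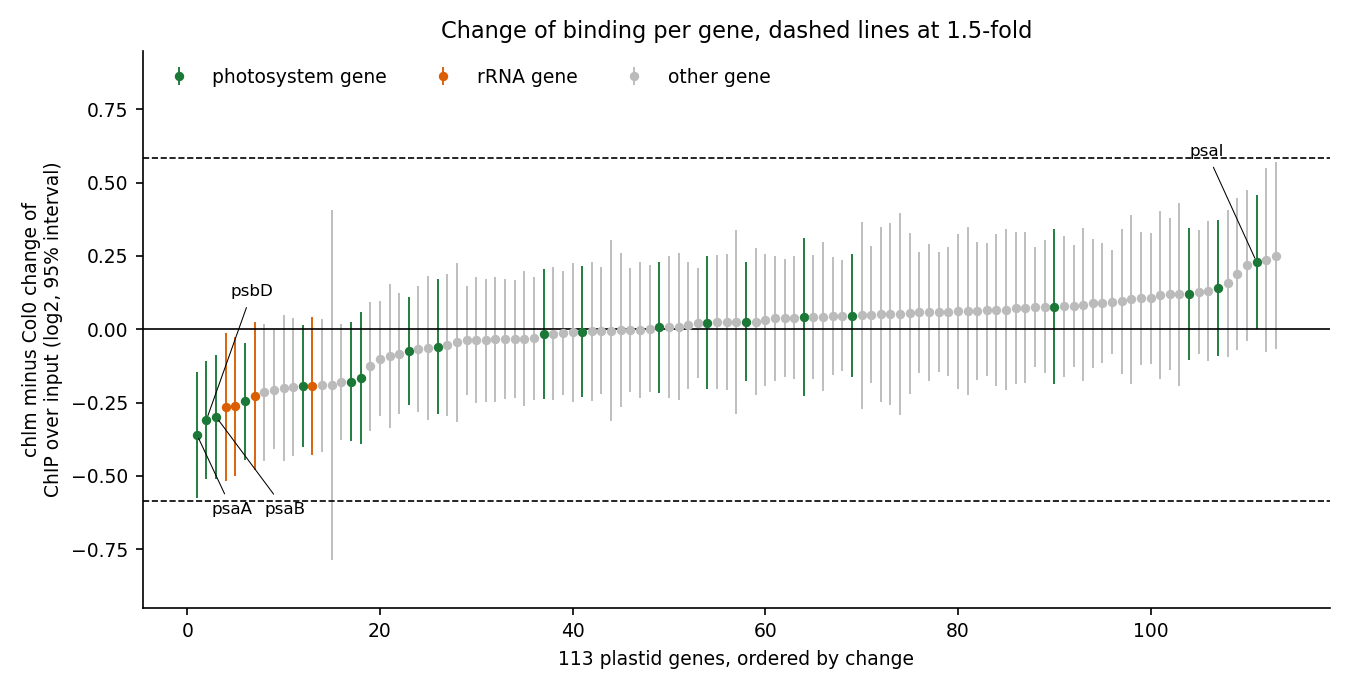
Change of binding in chlm against Col0 (log2, vertical axis) with 95% intervals for the 113 genes in order of their change, with dashed lines at 1.5-fold in either direction. psaA, psbD and psaB are the 3 lowest genes, psaI is among the highest, and trnH alone has an interval that crosses a dashed line.

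The rRNA genes were the other group at the low end. rrn23S (ArthCr087, 104691 to 107500, merged over its 2 copies) was at 1.92, 2.02 and 1.80 in Col0 and at 1.73, 1.40 and 1.82 in chlm. Those values overlapped, and chlm replicate 2 was the lowest. The change was -0.27 (SE 0.12, limma adjusted p = 0.682) and -0.14 without that ChIP library.

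rrn4.5S, rrn16S and the rRNA gene ArthCr091 had changes of -0.26, -0.23 and -0.19, with no call. In rrn16S, ChIP coverage differed by -0.06 and input coverage by 0.16, and in rrn23S by -0.12 and 0.15. The median of the 4 rRNA genes was -0.24.

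The remaining gene groups had no called member either. The median change was -0.07 over 6 ATP synthase genes, 0.04 over 6 cytochrome b6f genes, 0.05 over 11 NDH genes, 0.04 over 21 ribosomal protein genes and 0.04 over the 4 genes of the plastid polymerase. It was 0.06 over 7 genes known to be transcribed by the nucleus-encoded polymerase, each of which was above 0, beside 66 of all 113 genes. It was 0.05 over 6 genes that need the sigma factor SIG2. With scaling outside the inverted repeats the medians of the b6f, NDH, ribosomal protein, polymerase, tRNA and SIG2 genes were below 0, with -0.04 in tRNA genes as the lowest, so their sign depends on the scaling.

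The 30 tRNA genes had a median change of 0.02. Of the references, rbcL, the large subunit of Rubisco, had a change of -0.03 (95% interval -0.25 to 0.18). For trnE, whose tRNA also starts tetrapyrrole synthesis, it was -0.002 (-0.23 to 0.23), and for rpoB, a polymerase subunit, 0.05 (-0.27 to 0.36). The highest genes were trnR (ArthCt093) at 0.25, trnT at 0.24, psaI, trnL (Arthct122) at 0.22 and accD, a subunit of the plastid acetyl-CoA carboxylase, at 0.19. The ChIP coverage alone of trnR, trnT and trnL differed by 0.06, 0.07 and 0.04, and their input coverage by -0.19, -0.16 and -0.17.

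More spacers were above 0 than below it, with no call. In limma, 0 of 101 spacers passed the adjusted threshold (0%), 15 were higher at an unadjusted p under 0.05 (14.9%) and 4 were lower (3.96%). Replicates did not overlap for 18 spacers that were higher (17.8%) and 5 that were lower (4.95%). Other settings called between 0 and 5 spacers.

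The median change of spacers was 0.08, beside 0.03 for genes, and 79 of 101 were above 0. The median against the Col0 mean was 0.06, 0.24 and -0.01 in the chlm replicates and -0.04, -0.04 and 0.08 in those of Col0. These overlapped, so a shift of all spacers was not larger than the spread between replicates. The median was 0.01 with libraries centred on their median spacer, 0.03 when totals left out the inverted repeats, 0.01 without chlm ChIP replicate 2 and 0.15 without chlm ChIP replicate 3. The number of spacers at an unadjusted p under 0.05, 19 in all, lay between 6 and 28 with a library left out: it was 6 without chlm ChIP replicate 2, 8 without chlm input replicate 2 or Col0 input replicate 3, 10 without Col0 input replicate 2 and 11 without Col0 ChIP replicate 1 or 2. The median was 0.07 over the 27 spacers beside a photosystem gene and 0.09 over the other 74.

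The spacers with the lowest adjusted p were rps16-trnQ (6189 to 6615) and trnL-ccsA (114350 to 114460). rps16-trnQ was at 0.31, 0.19 and 0.36 in Col0 and at 0.70, 0.70 and 0.66 in chlm, a change of 0.40 (SE 0.11, limma adjusted p = 0.0731). trnL-ccsA was at 0.76, 0.90 and 0.90 in Col0 and at 1.18, 1.37 and 1.25 in chlm, a change of 0.42 (SE 0.12, limma adjusted p = 0.0731). Over the alternatives the adjusted p of rps16-trnQ ran from 0.0102 to 0.242, with a call in 7 of 24, and that of trnL-ccsA from 0.0102 to 0.313, with a call in 6 of 23. Neither overlapped between lines, and both were chosen here after their values were seen.

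Among the highest spacer changes were 0.50 in trnR-atpA and 0.45 in ndhG-ndhI. The spacer atpB-rbcL, which holds the promoters of both genes, was higher by 0.33 (SE 0.14, limma adjusted p = 0.224), at 0.66, 0.43 and 0.62 in Col0 and 0.93, 0.95 and 0.82 in chlm.

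The change of a spacer is its ChIP difference minus its input difference. In all 15 spacers that were higher at an unadjusted p under 0.05, ChIP coverage was higher in chlm, with a median of 0.20, and input coverage was lower, with a median of -0.13, an arrangement that choosing spacers by their change favours. For the ChIP difference by itself, 6 of the 15 had an unadjusted limma p under 0.05, beside 10 higher spacers among all 101. Its spread was still shared with the inputs, which vary less than the ChIP libraries, so these counts may be too high. The 7 genes that were lower had the opposite arrangement, a median of -0.17 in ChIP and 0.08 in input. For the ChIP difference by itself, with the same shared spread, 5 of the 7 had an unadjusted limma p under 0.05, beside 7 lower genes among all 113. The 7 genes were chosen by their change in the same way.

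Input against input, 0 of 113 genes (0%) were called when the spread was shared with the ChIP libraries, and 0 had an unadjusted p under 0.05. With the 12 input libraries alone, a fit chosen after seeing the data, limma called 15 genes (13.3%), 10 lower and 5 higher in chlm, with changes from -0.18 to 0.14. Of the 10 lower genes, 9 lay in the small single-copy region and the other was ycf1, which reaches into it. psaA and psaB were among the 5 higher ones, at 0.08 in both. The part of the input in the changes above was not tested beyond these values.

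**Figure D4:**
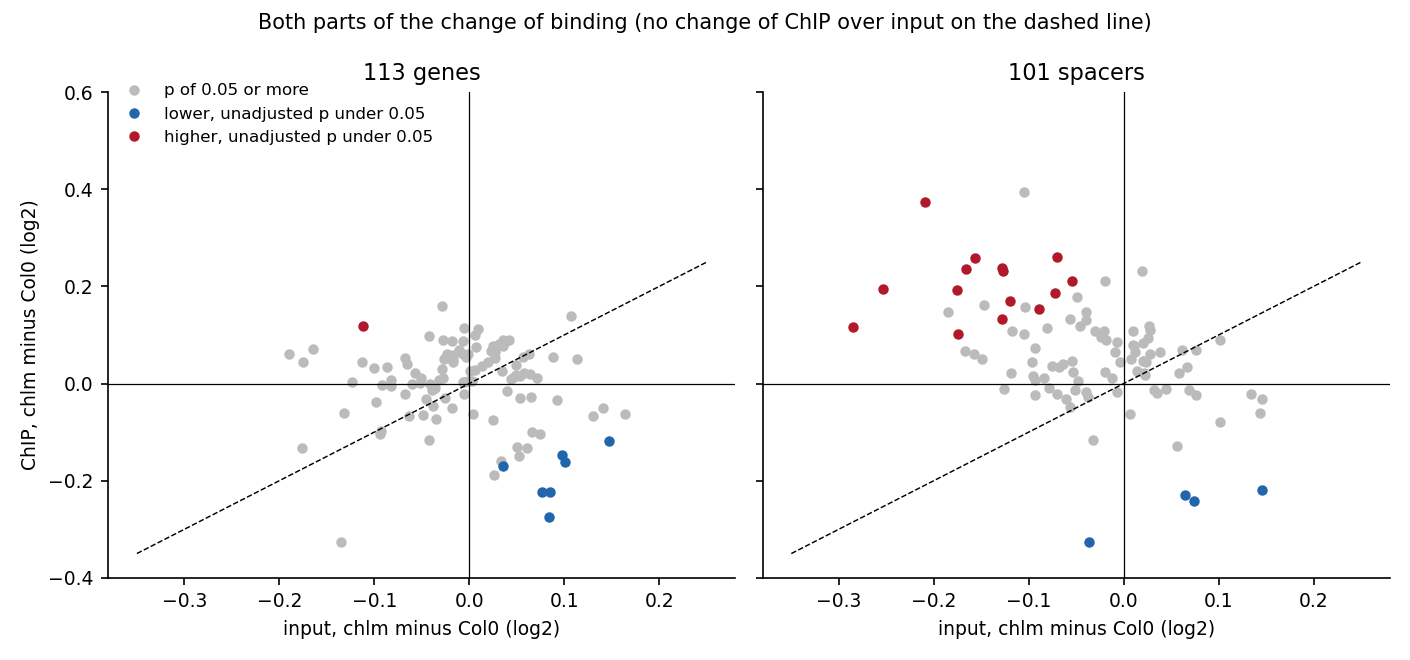
Difference between chlm and Col0 in ChIP coverage (log2, vertical axis) and in input coverage (log2, horizontal axis) for 113 genes and 101 spacers, coloured by direction where the unadjusted p of the change of ChIP over input was under 0.05. The 7 lower genes lie at negative ChIP and positive input differences, and the 15 higher spacers at positive ChIP and negative input differences.

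The lowest spacers lay in or beside transcribed units of the rRNA operon, ycf2 and the photosystems. They were rrn23S-rrn4.5S at -0.36, trnI-ycf2 at -0.32 and psbN-psbH at -0.29, followed by psaA-ycf3 at -0.29. The spacer psaA-ycf3 (41858 to 42583) lies on the side of psaA where transcription of the operon starts. It was at 0.47, 0.32 and 0.48 in Col0 and at -0.01, 0.32 and 0.10 in chlm, where chlm replicate 2 was just below the lowest Col0 replicate. The change was -0.29 (SE 0.12, limma adjusted p = 0.224). Input coverage there differed by only -0.04. For the ChIP difference by itself the spacer was at -0.33 and was called, with a limma adjusted p of 0.0356. That fit kept the spread shared with the inputs, which vary less than the ChIP libraries, so its p may be too low. Over its 24 alternatives the adjusted p ran from 0.0356 to 0.515.

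The spacers on the promoter side of other core genes were close to 0. The change was 0.03 in psbA-trnK, 0.05 in clpP-psbB and 0.07 in trnT-psbD, each with overlapping replicates. In the gene bodies of psbA, psbB and psbD the replicates had no overlap, with no call. Each spacer value is a mean over the whole spacer, and whether bodies and spacers differ in their change was not tested.

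Windows of 50 bp located these differences more closely. In limma, 0 of 2564 windows passed the adjusted threshold (0%), while 166 were lower (6.47%) and 133 were higher (5.19%) at an unadjusted p under 0.05. Neighbouring windows share reads, so these are not independent. Windows wholly or mostly in photosystem genes were lower at that level in 121 of 233 cases and higher in 0, with a median of -0.24. Windows in spacers were higher in 110 of 776 cases and lower in 11, with a median of 0.10.

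Most of the lower windows fell in a few transcribed regions, which were picked here with the values in view. The unit of psaA, psaB and rps14 held 82 of the 166 among its 98 windows, all 98 of which were below 0. psbD and psbC held 37 among 49 windows, the rRNA operon 28 among 134, psbA 3 among 21 and the spacer psaA-ycf3 5 among 15. rbcL held 0 among 29. Together these 6 regions held 155 of the 166 lower windows and 0 of the 133 higher ones in 13.5% of all windows.

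The 3 lowest windows were adjacent, at positions 41951 to 42100 in the spacer psaA-ycf3. The lowest, 42001 to 42050, is 144 to 193 bp from the end of psaA and was the top of a local peak of binding in both lines. It was at 2.19, 1.91 and 2.09 in Col0 and at 1.23, 1.49 and 1.52 in chlm. No replicate overlapped, and the change was -0.65 (SE 0.16, 95% interval -0.97 to -0.34, limma adjusted p = 0.0685). Whether the peak and the body of psaA, at -0.36, differ in their change was not tested.

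The change was -0.56 in the window beside it, 42051 to 42100, and -0.53 in that at 41951 to 42000. Farther out, at 444 to 493 bp from psaA, Col0 was at -1.62 and chlm at -1.17. The change there was 0.45, but its interval ran from -0.04 to 0.94 and the replicates overlapped (limma adjusted p = 0.501).

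**Figure D5:**
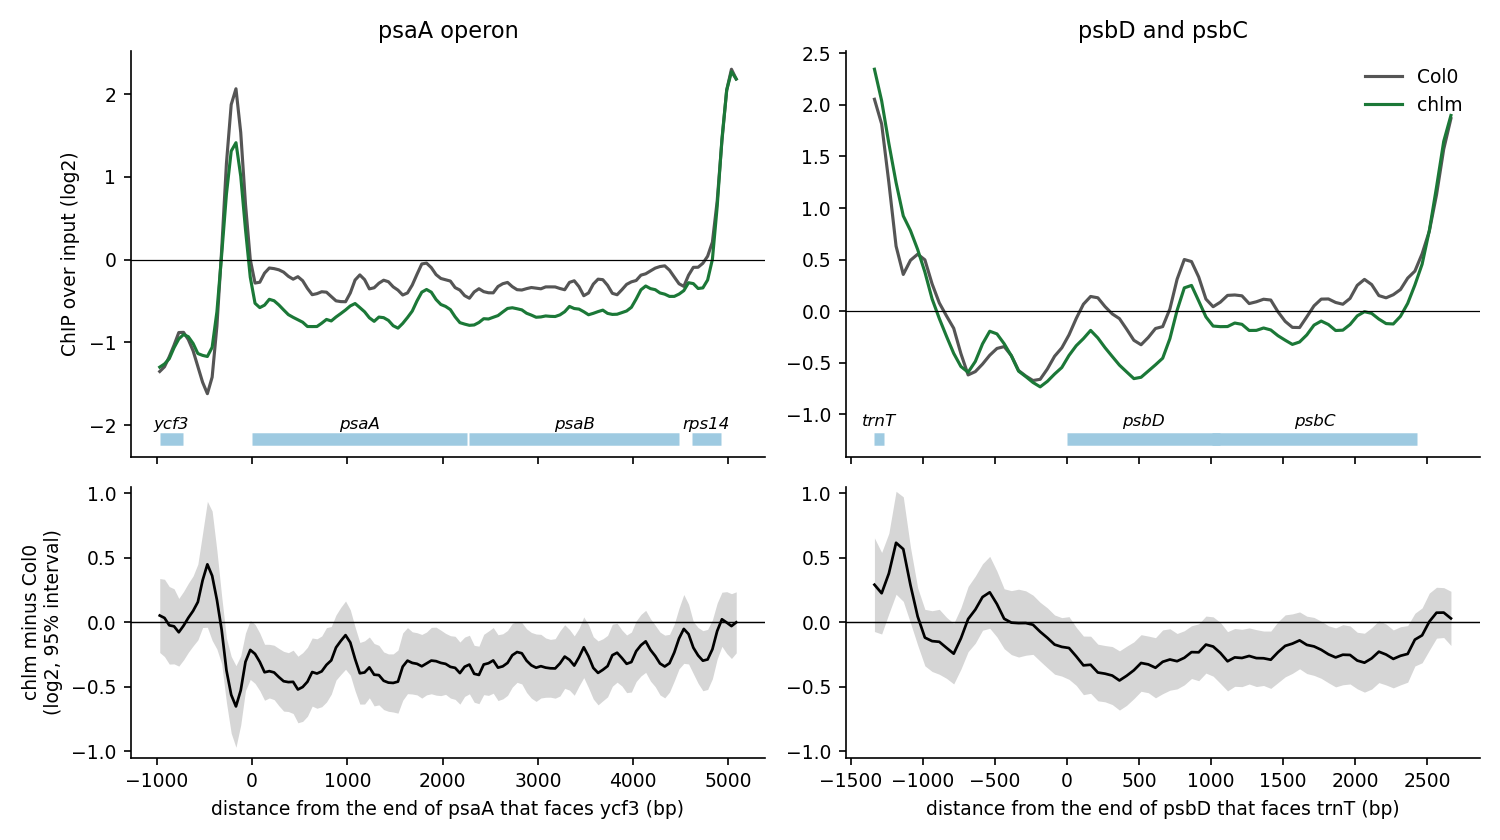
Mean ChIP over input (log2, upper panels) of Col0 and chlm in 50 bp windows, and the change with its 95% interval (log2, lower panels), along the psaA operon (left) and psbD and psbC (right), by distance in bp from the named gene end. chlm lies below Col0 over the whole of psaA, psaB, psbD and psbC and at the peak before psaA, where the values are 2.06 in Col0 and 1.41 in chlm.

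The highest windows were in spacers with little DNA coverage even in the input. They were 8151 to 8200 at 1.86, 36301 to 36350 at 1.79 and 8101 to 8150 at 1.72, where Col0 input coverage was 0.077, 0.174 and 0.062 of the genome average. In the window 8151 to 8200 the Col0 values were 0.73, -1.2 and -0.46 and the chlm values 1.73, 1.2 and 1.72, with an interval from -0.43 to 4.15. Over the 18 windows with Col0 input below 0.5 of the average the median change was 0.89 and the median bound 1.78 on the log2 scale, against 0.04 and 0.41 over the other 2546. Of the 18 windows, 7 were higher at an unadjusted p under 0.05, among them 36301 to 36350, with an interval from 0.34 to 3.24 and no overlap of replicates.

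Col0 also serves as the reference for chl27 and sig2-2, so the 3 changes share their control libraries and are given side by side. The median change over the 6 core photosystem genes was -0.27 in chlm, -0.09 in chl27 and 0.23 in sig2-2. In sig2-2, 3 of these 6 genes were called higher and 1 lower, beside 60 and 38 of all 113 genes. In chl27, 0 were called higher and 1 lower, beside 46 and 15 of all 113. Over the 7 genes transcribed by the nucleus-encoded polymerase the median change was 0.06 in chlm, 0.57 in chl27 and 1.10 in sig2-2. The median was 0.02, -0.23 and -0.70 over the 30 tRNA genes, and -0.24, -0.49 and -0.69 over the 4 rRNA genes. At the peak before psaA (42001 to 42050) the change was -0.65 in chlm, -0.97 in chl27 and 0.32 in sig2-2.

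CHL27 is a subunit of the cyclase that acts after CHLM in chlorophyll synthesis, so the comparison of chlm with chl27 sets the same pathway side by side at 2 steps. The Col0 libraries are not in this contrast and entered only the shared spread. limma called 43 of 113 genes lower in chlm (38.1%) and 12 higher (10.6%), and 15 lower and 29 higher when libraries were centred on their median gene. Without chlm ChIP replicate 3 the total fell from 55 to 23, and without chlm input replicate 2 to 34. No chl27 library was left out. Among the chl27 ChIP libraries, replicate 1 differed most: the SD over genes of its log2 difference was 0.31 from each other replicate. Between replicates 2 and 3 it was 0.10.

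Of the 7 genes transcribed by the nucleus-encoded polymerase, 6 were lower in chlm than in chl27, among them rpoB by -0.56 (SE 0.16, limma adjusted p = 0.00956). Of 20 photosystem genes 6 were lower, a smaller share than over all genes, with psaC at -0.47, psbB at -0.32, psbH at -0.29, psbD at -0.28, psbF at -0.27 and psaA at -0.26. Of 30 tRNA genes 11 were higher in chlm, with trnT at 0.57, trnL (Arthct122) at 0.55, trnR (ArthCt093) at 0.41 and trnE at 0.30. Against sig2-2, 101 of 113 genes (89.4%) differed from chlm.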

How the data were processed

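The deposited values were the authors' coverage of the plastid genome at 154477 positions, as whole numbers with no scaling, in 1 column per library. The submitters' processing notes name Trim Galore 0.4.1, Bowtie2 2.2.8.9, bedtools 2.25.0 and the build TAIR10. Treatment of duplicates and of reads that match both inverted repeats is not given in the sources used here. The number of reads is unknown and neighbouring positions share reads, so no count model or counting interval was used.

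Gene positions came from the RefSeq table of TAIR10.1, whose mirrored repeat genes were checked against mirrored coverage within 1 bp. The 2 repeat copies were averaged, strand was not used, and 11 overlapping genes share coverage. Mean coverage per feature was divided by the library total and scaled, 1 was added and log2 was taken. Shares are therefore relative, and folds of low features are understated, though little. With 0.1, 1 or 10 added, the change of psaA was -0.36 and the spacer median 0.08. limma 3.58.1 in R 4.3.3 fitted 8 group means over 24 seedling libraries with a variance trend and Benjamini-Hochberg adjustment over all features (threshold 0.05). The script was tested on simulated data. There ChIP and input libraries had the same spread, so that test does not cover the unequal spread of the real libraries. Plots used matplotlib 3.10.9, and tables pandas 2.3.3 and numpy 2.4.6 (Python 3.11.15). For a single replicate, the mean log2 input of the line was subtracted from the log2 value of that ChIP library.

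Named are the 5 highest and 5 lowest genes, the 20 photosystem genes, rbcL, rrn16S, trnE and rpoB, and the 3 highest and 3 lowest spacers and windows. A spacer that this rule names is not reported here. The genes, lists and comparisons were chosen with earlier results of these data known. Alternatives covered scaling, pseudocounts of 0.1 and 10, filters on low and short features, the libraries fitted, array weights, replicate blocks, window size and leaving out each library. The leaf libraries were not used.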

Additional observations from a re-analysis of the deposited data

Results flagged for a closer look

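The change of ChIP over input against Col0 differed between lines, by a limma test of the difference itself, for 55 genes between chlm and chl27 and for 101 genes between chlm and sig2-2. Among the genes named above, the difference of chlm minus chl27 was past the adjusted threshold for 11. It was -0.56 for rpoB, -0.47 for psaC, -0.32 for psbB, -0.29 for psbH, -0.28 for psbD, -0.27 for psbF and -0.26 for psaA. It was 0.30 for trnE, 0.41 for trnR (ArthCt093), 0.55 for trnL (Arthct122) and 0.57 for trnT. Of the 55 genes, 12 were higher and 43 lower in chlm. With libraries centred on their median gene, 29 genes were called higher and 15 lower. Groups of 3 libraries were not searched for single outlying samples.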

How the results depend on the processing

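In limma, genes past the threshold between chlm and Col0 numbered 1 with centring on the median gene (psaA -0.30), 3 with scaling outside the inverted repeats (psaA -0.41), 1 with the lowest 10% by input left out and 3 with genes under 300 bp left out (psaA -0.36 in both), and 2 with array weights (psaA -0.34). Leaving out each library gave 0 to 1 genes, with psaA from -0.43 to -0.30, and called psaA without Col0 ChIP replicate 2. Spacers numbered 2 with the lowest 10% left out, 1 with those under 200 bp left out, 2 with the 12 libraries alone and 1 with array weights. They numbered 1 with the ChIP difference by itself and 0 to 4 with a library left out (4 without Col0 ChIP replicate 3, 1 without Col0 input replicate 1). Windows numbered 87 with centring, 37 with scaling outside the repeats, 20 with the lowest 10% left out, 11 with the 12 libraries alone and 180 with array weights. They numbered 29 with the ChIP difference by itself and 0 to 21 with a library left out (21 without chlm ChIP replicate 2, 14 without Col0 ChIP replicate 2, 1 without chlm ChIP replicate 3). The ChIP difference by itself was fitted with the spread shared with the inputs, so its calls may be too many. The filters change both the number of features and the fitted spread, and the cause of these differences was not tested.

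With the replicate number as a replicate block, 0 genes, 5 spacers and 62 windows were called, and with blocks within lines 0 genes, 4 spacers and 92 windows. Deviations of same-numbered libraries had correlations from -0.38 to 0.43 over genes, at most 2 of 3 libraries of a group correlated best with their own number, and the numbers were not taken as pairs. The comparison with chl27 called 94 genes with array weights and 23 to 74 with a chlm or Col0 library left out. That with sig2-2 called 56 genes of 300 bp or more. No chl27 or sig2-2 library was left out. Inputs of chlm and Col0 differed in 11 genes with array weights and in 15 with inputs alone. Leaving out genes under 300 bp left 62 genes inside 1.5-fold and a photosystem median of -0.27. Of 906 recomputed values of 39 named genes and spacers, 29 newly passed the threshold and 12 others moved by more than 1 SE. The sign turned in 56 values of 11 genes, none of them called and with main values of at most 0.06 in size. Deposited coverage gives no read number, so depth limits were judged from replicates only.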
